A study of Schizosaccharomyces pombe with 4 samples.

Results

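In fission yeast, Schizosaccharomyces pombe, 36 sites were called as peaks for both the forkhead factor Fkh2 and the RFX-family factor Sak1, and the signal of the 2 factors was compared at each. A site was a Fkh2 peak and a Sak1 peak that overlapped by at least 1 bp on the nuclear chromosomes, paired by nearest centre. Every overlap was 1 to 1. The 36 pairs took in 23.7% of the 152 Fkh2 peaks and 78.3% of the 46 nuclear Sak1 peaks, out of 210 peaks in all the deposited lists. Pairs were ordered by the log2 of the Fkh2 over the Sak1 normalised tag count, and the ends of the order were chosen by this measured ratio. Ratios, distances between centres and membership of an end are therefore given as descriptions.

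The study used chromatin immunoprecipitation and sequencing (ChIP-seq). The Fkh2 strain, JLP1586, and the Sak1 strain, JLP1792, each carried a TAP affinity tag at the C terminus of the named protein, and DNA was recovered on IgG beads. A Sep1 strain, JLP1670, was tagged in the same way and exposed to bortezomib, which blocks the proteasome; the labels put this at 1 mM and 45 min. An untagged strain, F108, was the control for every peak list. All cultures were asynchronous in YES medium, a rich yeast medium, and the labels name no treatment for the Fkh2, Sak1 and untagged cultures. Each factor has 1 library, which pools 2 biological experiments, so no value below has a replicate error and none of the differences was tested. The library totals were 1042989.5 tags for Fkh2 and 795148 for Sak1, and tag counts are scaled to 10000000 tags per library. The Fkh2 and Sak1 libraries were called against the same untagged control.

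Forkhead factors bind DNA through a winged-helix domain and read words such as GTAAACA. In fission yeast, Fkh2 and the second forkhead factor, Sep1, control genes transcribed around mitosis and cell separation. RFX factors also have a winged-helix domain and bind the X-box, a pair of inverted arms separated by a short stretch. Sak1 is the fission yeast member of that family and was described as an essential gene linked to exit from the mitotic cycle.

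The sequences below are the parts of 8 Fkh2 peaks that lie outside annotated untranslated regions. They are shown because they come from the ends of the order and hold the words counted further on. Each reads 5′ to 3′ on the forward strand. Capitals mark GTAAACA and GTAAATA on either strand (TGTTTAC and TATTTAC when read here), and the GTT and AAC arms of an X-box arrangement, that is GTT and AAC separated by 8 bases. The deposited files name no build; coordinates were read on assembly ASM294v3. The first 4 lie at the Fkh2-rich end and the last 4 at the Sak1-rich end.
SPCC306.11, chrIII:430180-430334: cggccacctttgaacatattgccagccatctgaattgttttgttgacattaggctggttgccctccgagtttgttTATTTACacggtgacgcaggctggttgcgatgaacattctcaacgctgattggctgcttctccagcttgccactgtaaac
exg1, chrII:3514232-3514386: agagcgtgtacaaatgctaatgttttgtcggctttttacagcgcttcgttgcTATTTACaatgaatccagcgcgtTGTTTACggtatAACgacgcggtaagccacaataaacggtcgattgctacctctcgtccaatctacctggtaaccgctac
ecm33, chrI:1571633-1571787: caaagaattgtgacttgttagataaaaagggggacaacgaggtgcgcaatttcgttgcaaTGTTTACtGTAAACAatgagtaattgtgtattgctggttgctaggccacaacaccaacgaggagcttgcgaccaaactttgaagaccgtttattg
mde6/pun1, chrI:3696436-3696564: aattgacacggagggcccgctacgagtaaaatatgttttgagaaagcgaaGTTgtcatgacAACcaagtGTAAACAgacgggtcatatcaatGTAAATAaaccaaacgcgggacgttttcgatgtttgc
rep2, chrII:1717397-1717551: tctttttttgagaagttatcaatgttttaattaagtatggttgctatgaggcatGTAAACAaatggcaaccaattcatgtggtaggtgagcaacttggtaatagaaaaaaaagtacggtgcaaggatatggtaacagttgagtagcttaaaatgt
bet1, chrI:1051278-1051432: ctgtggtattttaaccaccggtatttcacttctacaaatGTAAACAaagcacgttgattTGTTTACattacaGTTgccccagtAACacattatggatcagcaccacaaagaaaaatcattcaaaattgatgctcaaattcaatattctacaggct
wdr8, chrII:1468437-1468509: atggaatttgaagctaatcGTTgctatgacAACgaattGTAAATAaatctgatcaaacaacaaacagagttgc
spo12, chrI:2849273-2849361: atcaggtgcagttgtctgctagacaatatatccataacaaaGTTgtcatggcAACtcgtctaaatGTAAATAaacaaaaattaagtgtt
At ecm33 a forkhead word on each strand lay side by side, separated by 1 base. At SPCC306.11 the last bases begin a GTAAACA that ends 1 base past the stretch. At exg1 the X-box arrangement and a forkhead word shared bases. At mde6/pun1 and bet1 an X-box arrangement stood beside a separate GTAAACA, and at wdr8 and spo12 beside GTAAATA alone. SPCC306.11, ecm33 and rep2 held no X-box arrangement, but rep2 held the RFX half-words GTTGCCA and GTTACCA on the reverse strand.

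Over the 36 pairs the log2 ratio ran from -2.05 to 1.98, with a median of -0.03 and an SD between pairs of 0.93. Summed over the pairs, the normalised counts were 81419.5 for Fkh2 and 82009.9 for Sak1, from 8492 and 6521 tags. The totals were thus close, while single sites differed by up to 4.14-fold (Sak1 over Fkh2, at knh1/alp1). At least 2-fold more Fkh2 than Sak1 was counted at 3 pairs, or 8.33%, and at least 2-fold more Sak1 than Fkh2 at 9 pairs, or 25% of all. The exact binomial 95% interval of the ratio, which covers counting error only, lay above 0 at 10 pairs (27.8%) and below 0 at another 10 (27.8%), and held 0 at 16. The zero point of this scale depends on peak width, which was 155 bp in the Fkh2 list and 235 bp in the Sak1 list. Per base pair, every ratio was higher by 0.60, the median was 0.57, and 9 pairs were Fkh2-rich and 3 Sak1-rich by 2-fold. Dividing by these fixed widths shifts all pairs alike and so cannot change their order. Tags were not recounted in windows of a common width, so the part of the widths in the order was not tested.

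**Figure D1:**
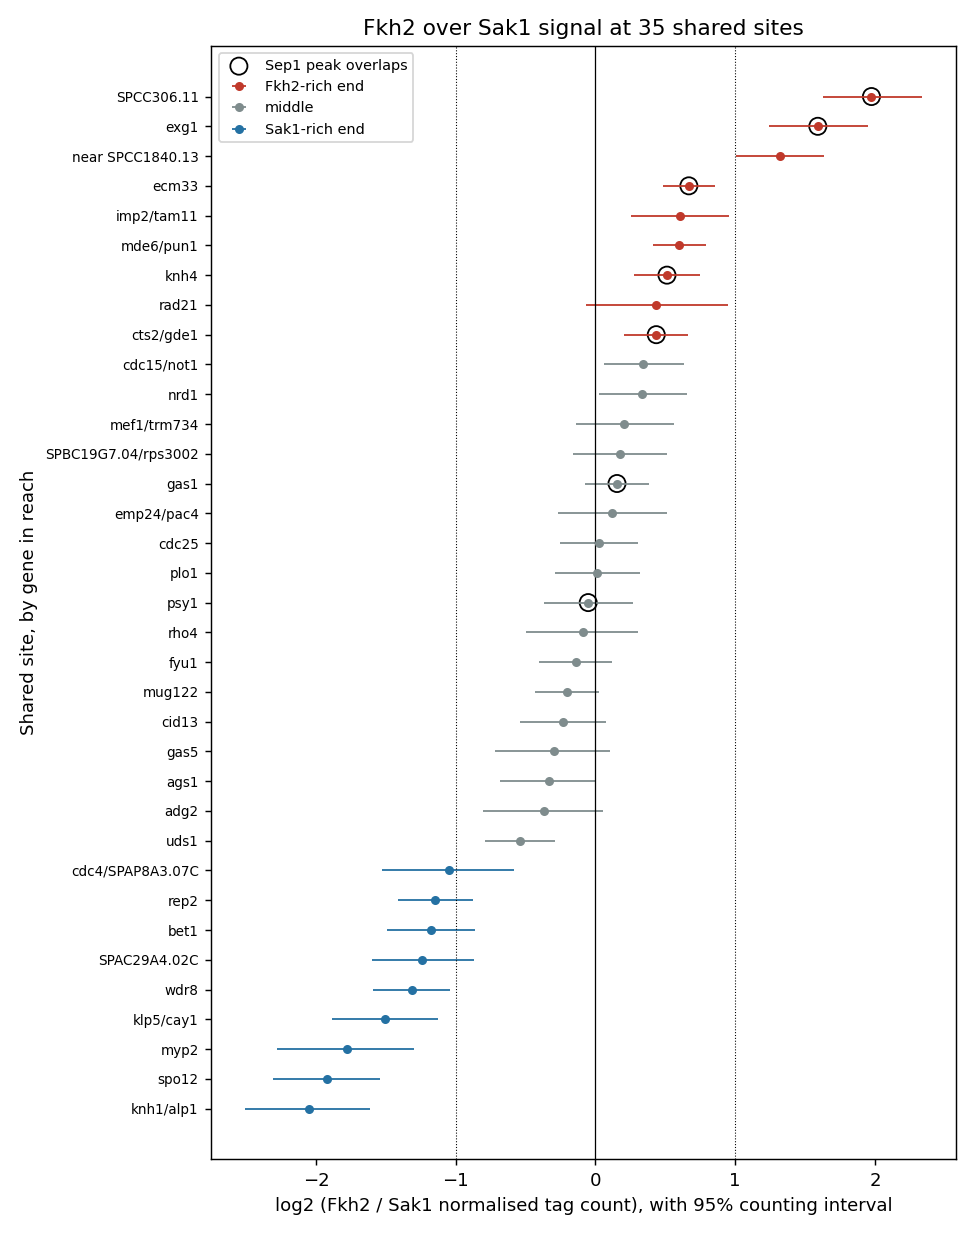
The log2 ratio of Fkh2 over Sak1 normalised tag count at 35 of the 36 sites, highest on top, with exact binomial 95% intervals for counting error, the ends of the order in red and blue, and dotted lines at a 2-fold difference. SPCC306.11 stands at 1.98 and knh1/alp1 at -2.05; the 7 plotted sites with a Sep1 peak, marked by open black circles, lie between psy1, at -0.05, and SPCC306.11.

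The ordered ratios ran in small steps through the middle and broke at both ends. Above ecm33 there was a step of 0.65, and 3 pairs stood beyond it. Below uds1 there was a step of 0.51, and the 9 Sak1-rich pairs stood beyond that. The 9 highest and the 9 lowest pairs are called the ends below, and the 18 between them the middle.

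The highest ratio was at SPCC306.11, a gene with no known function, where Fkh2 gave 4055.6 normalised tags and Sak1 gave 1031.3. The log2 ratio was 1.98 (95% counting interval 1.63 to 2.33). This site ranked 6 of the 152 Fkh2 peaks but only 41 of the Sak1 peaks, and the peak centres were 3 bp apart. At exg1, which encodes a cell wall beta-glucosidase, Fkh2 gave 3221.5 and Sak1 gave 1069.0 normalised tags, a log2 ratio of 1.59 (1.24 to 1.95). Its centres were 41 bp apart, and the Sak1 centre was the closer to the exg1 start, 254 bp upstream against 295 bp for the Fkh2 centre. The third pair had no gene start in reach. It lay in coding sequence on chromosome III at 2257732 to 2257886, with SPCC1840.13 as the nearest gene start, and held 3513.9 Fkh2 tags and 1408.5 Sak1 tags (log2 ratio 1.32, interval 1.01 to 1.64). At all 3 sites Fkh2 was a strong peak and Sak1 a weak one.

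The next 6 pairs had smaller ratios, between 0.44 and 0.67, and several were strong for both factors. The ecm33 promoter, upstream of a gene for a cell surface protein, was the strongest Fkh2 peak and the second strongest Sak1 peak. It held 6836.1 Fkh2 tags and 4301.1 Sak1 tags, the centres coincided, and the log2 ratio was 0.67 (0.48 to 0.86). The divergent promoter of mde6 and pun1, with pun1 encoding a protein of the SUR7 membrane family, was second for Fkh2 and first for Sak1, with 6668.3 and 4401.7 tags (log2 ratio 0.60, 0.41 to 0.79). The knh4 site gave 4213.8 Fkh2 tags and 2955.4 Sak1 tags, a log2 ratio of 0.51. At cts2, a chitinase gene that shares its site with gde1, Fkh2 gave 4165.9 and Sak1 gave 3081.2 tags, a log2 ratio of 0.44. These 4 sites were thus near the top of both lists.

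Sites with fewer tags completed the Fkh2-rich end. The imp2/tam11 site, with imp2 encoding an F-BAR protein of the contractile ring, held 2003.9 Fkh2 tags and 1320.5 Sak1 tags (log2 ratio 0.60, 0.26 to 0.95). The rad21 site, at the gene for the mitotic cohesin subunit, held 901.3 Fkh2 and 666.5 Sak1 tags, rank 76 of 152 in the Fkh2 list and 45 in the Sak1 list. Its interval, -0.07 to 0.95, covers counting error only and held 0, which here means equal counts in windows of unequal width. Per base pair the rad21 log2 ratio was 1.04.

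The lowest ratio was at knh1/alp1, where knh1 encodes a KRE9-like protein and alp1 the tubulin cofactor D. Fkh2 gave 546.5 and Sak1 gave 2263.7 normalised tags, a log2 ratio of -2.05 (-2.51 to -1.61). At spo12, whose budding yeast relative acts in mitotic exit, Fkh2 gave 757.4 and Sak1 gave 2867.4 tags (log2 ratio -1.92, -2.31 to -1.55). At myp2, a myosin II heavy chain gene of the contractile ring, the counts were 479.4 for Fkh2 and 1647.5 for Sak1 (-1.78, -2.28 to -1.30). The myp2 pair only just met the overlap rule, because its peaks shared 15 bp and its centres were 180 bp apart, the Fkh2 centre inside the coding sequence and the Sak1 centre at the myp2 start. All 3 sites were among the weaker Fkh2 peaks, ranking 121, 90 and 130 of 152. In the shorter Sak1 list, 47 peaks in all, they ranked 18, 12 and 27, and myp2 was below that list's median count of 1861.3.

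The other 6 pairs of the Sak1-rich end had log2 ratios from -1.50 to -1.05. The klp5/cay1 site, with klp5 encoding a kinesin of the mitotic spindle, held 834.1 Fkh2 tags and 2364.3 Sak1 tags, a log2 ratio of -1.50. The wdr8 site held 1606.0 Fkh2 tags and 3999.3 Sak1 tags, a ratio of -1.32, and was the fourth strongest Sak1 peak. The rep2 site, at the gene for an activator subunit of the G1/S factor MBF, was the third strongest Sak1 peak, with 1816.9 Fkh2 tags and 4024.4 Sak1 tags (log2 ratio -1.15, -1.41 to -0.88). Fkh2 counts at wdr8 and rep2, ranks 37 and 26 of 152, were in the upper part of the Fkh2 list. The bet1 site, at a gene for a secretory SNARE, held 1289.6 Fkh2 tags and 2917.7 Sak1 tags, a log2 ratio of -1.18. The site of SPAC29A4.02C, annotated as an elongation factor subunit, held 954.0 Fkh2 tags and 2251.2 Sak1 tags (-1.24). The cdc4/SPAP8A3.07C site, at the myosin light chain gene of the contractile ring, was weak for both factors, with 613.6 Fkh2 tags and 1270.2 Sak1 tags (-1.05, -1.52 to -0.58).

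**Figure D2:**
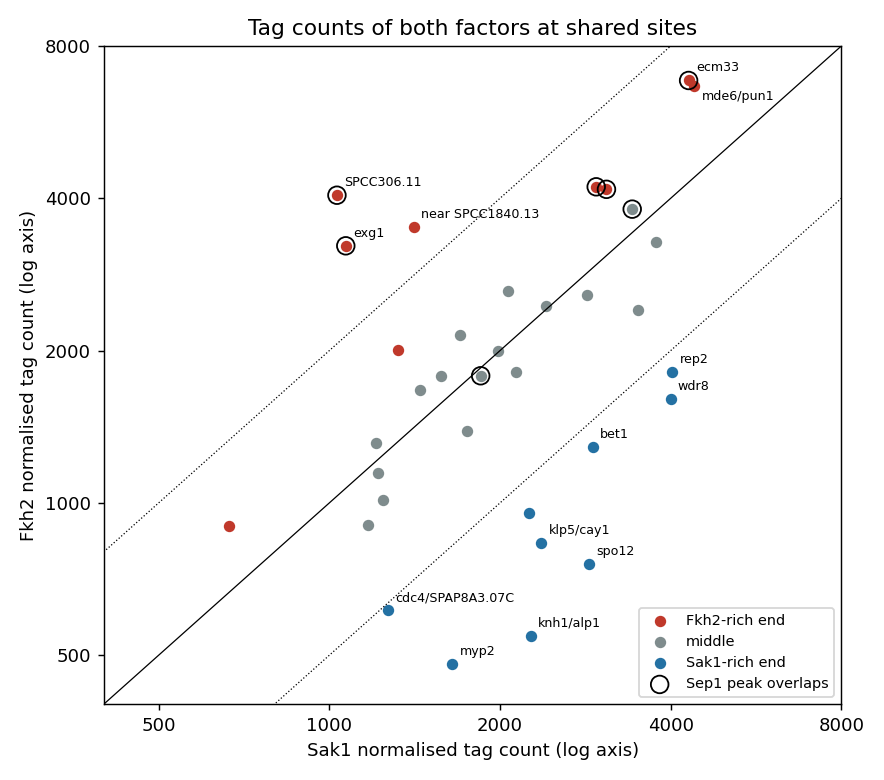
Normalised tag count in the Fkh2 library (vertical, log scale) against that in the Sak1 library (horizontal, log scale) at 35 of the 36 sites, with a solid line at equal counts, dotted lines at a 2-fold difference and open circles around sites with a Sep1 peak. Sites of the Fkh2-rich end (red) span 901.3 to 6836.1 Fkh2 tags, and those of the Sak1-rich end (blue) span 479.4 to 1816.9.

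The mitotic regulators cdc25 and plo1 stood at the centre of the order, with near-equal counts. Cdc25, the phosphatase that activates the mitotic kinase, gave 2454.5 Fkh2 and 2414.6 Sak1 tags, and its centres were 2 bp apart. Plo1, the Polo kinase, gave 1999.1 Fkh2 and 1987.1 Sak1 tags. The log2 ratios of these sites were 0.02 and 0.01, and both counting intervals held 0. Only 3 middle pairs had an interval that left out 0: cdc15/not1 at 0.34 (0.06 to 0.63) and nrd1 at 0.34 (0.02 to 0.66) above it, and uds1, a septation gene, at -0.54 (-0.79 to -0.29) below it. Cdc15 encodes an F-BAR protein of the contractile ring and nrd1 an RNA-binding protein.

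The middle also held 5 genes of the cell wall and surface list. The glucanosyltransferase genes gas1 and gas5 stood at 0.15 and -0.30, the alpha-glucan synthase gene ags1 at -0.34, adg2 at -0.37 and the plasma membrane SNARE gene psy1 at -0.05. Other middle sites were mef1/trm734 at 0.21, SPBC19G7.04/rps3002 at 0.18, emp24/pac4 at 0.12, rho4 at -0.09, fyu1 at -0.14, mug122 at -0.20 and cid13 at -0.23. Of these, mug122 had the highest counts, 3274.2 for Fkh2 and 3772.9 for Sak1.

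Fkh2 signal differed more along the order than Sak1 signal did. The median Fkh2 count was 4055.6 at the Fkh2-rich end, 1908 in the middle and 834.1 at the Sak1-rich end. The median Sak1 count was 1408.5, 1917.9 and 2364.3 in the same 3 segments. Across the 36 pairs, Spearman's rho with the log2 ratio was 0.74 for the Fkh2 count and -0.22 for the Sak1 count. The segment medians and both rho values share a term with the ratio, and describe only which term varied more. A pair also had to be called in both lists, where the median count was 894.1 for Fkh2 and 1861.3 for Sak1. The part of this entry rule in the contrast was not tested. The Fkh2 and Sak1 counts themselves had a rho of 0.39 over the same pairs, which share their libraries and control.

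A gene was in reach when the peak centre lay no more than 1000 bp before its 5′ end and no more than 250 bp past it. The 36 pairs reached 45 genes, with 10 pairs reaching 2 genes, and each of the 45 was in reach of both centres. The Fkh2-rich end reached 11 genes and the Sak1-rich end 12. Of the cell wall and surface list, 10 of 28 genes lay at shared sites, at 10 pairs, with log2 ratios from -0.37 to 1.59 and a median of 0.29, beside -0.03 over all pairs. The interval lay above 0 at 5 of these (exg1, ecm33, pun1, knh4 and cts2) and below 0 at 0 of them, beside 10 above and 10 below over the 36 pairs. The list holds knh4 but not knh1, which has the lowest ratio of all.

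The M-phase list had 9 of 27 genes at shared sites, with a median log2 ratio of 0.01, close to that of all pairs, but they were spread widely. The interval lay above 0 at imp2, mde6 and cdc15, held 0 at 3 genes, cdc25 and plo1 among them, and lay below 0 at klp5, myp2 and spo12. These 3 and 3 of 9 are near the 27.8% above and 27.8% below over all pairs. The 4 of 21 genes of the septum and ring list divided in the same way, with the F-BAR genes imp2 and cdc15 above 0 and the myosin genes cdc4 and myp2 below it, and a median of -0.35. The division rests on few genes, and the myp2 peaks shared only 15 bp. The list does not hold the septation gene uds1, which stood at -0.54 with an interval below 0. The list called chromatin and transcription had 3 of 18 genes, rep2 at -1.15 and wdr8 at -1.32 among them. The place of wdr8 in this list was not checked, so no median is given. The mating and meiosis list had 3 of 22 genes, mde6, psy1 and mug122, with a median of -0.05. The G1/S list had 2 of 19 genes, rad21 at 0.44 and rep2 at -1.15, and the secretion list 2 of 16, psy1 at -0.05 and bet1 at -1.18. The sugar and energy list had 0 of 22. No list was tested, and the lists are not separate, because 1 site can count in several. The mde6/pun1 pair counts in the cell wall and surface list through pun1. It counts again in the M-phase list and the mating and meiosis list through mde6. The genes imp2, cdc15 and myp2 are in both the M-phase list and the septum and ring list. The psy1 site is in the cell wall and surface, mating and meiosis, and secretion lists.

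A forkhead word, GTAAACA on either strand within 150 bp of the Fkh2 centre, was present at 28 of the 36 pairs (77.8%, exact binomial 95% interval 60.8 to 89.9%). The share of all 5112 promoter windows of the same 301 bp, from 250 bp before to 50 bp after a gene start, was 16.5%. Of the 116 Fkh2 peaks without a Sak1 peak, 84 (72.4%) held it, a share close to that of the shared sites. Along the order, 7 of 9 pairs at the Fkh2-rich end, 16 of 18 in the middle and 5 of 9 at the Sak1-rich end held it. The variant GTAAATA, chosen after the sequences were seen, was present at 19 of 36 pairs and in 16.2% of promoter windows, and at 17 of the same 116 Fkh2 peaks. By segment it was at 7 of 9, 8 of 18 and 4 of 9 pairs. Either word was at 33 of 36 pairs (91.7%), against 29.4% of promoter windows and 75.9% of Fkh2 peaks without Sak1. The 3 pairs without one were emp24/pac4, cid13 and myp2. The number of GTAAACA words had a rho of 0.39 with the log2 ratio over the 36 pairs, which share their libraries.

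An X-box arrangement, with the gap of 8 bases chosen after the data were seen, lay within 150 bp of the Fkh2 centre at 20 of 36 pairs (55.6%, 38.1 to 72.1%), against 10.3% of promoter windows. It reads the same on both strands. It was at 4 of 9 pairs of the Fkh2-rich end, 11 of 18 of the middle and 5 of 9 of the Sak1-rich end, so its presence varied little along the order, and the rho of its number with the log2 ratio was -0.11. Among Fkh2 peaks without Sak1 it was at 15 of 116. When the same arms were separated by 5, 6, 7, 9, 10 or 11 bases, they were found at 1, 3, 2, 3, 7 and 4 of the 36 pairs, against 9.43 to 11.7% of promoter windows. The gap of 8 bases thus had the highest count of these at shared sites. It was chosen from these data, so its count is a description only. Among Sak1 peaks without Fkh2, the gap of 8 bases was at 3 of 10 and the gap of 11 bases also at 3 of 10.

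The counted X-box arrangements differed in what the arms enclose. The only one at exg1 was GTTtacggtatAAC, whose first arm is part of a forkhead word. The only one at cdc15/not1 was GTTattgaaagAAC, 113.5 bp from the Fkh2 centre. The 14-base arrangements of 8 selected sites follow, with the arms in capitals, and do not stand for all that were counted.
mde6/pun1: GTTgtcatgacAAC
knh4: GTTaccctgacAAC
cdc25: GTTgccctagcAAC
plo1: GTTgtcgtagcAAC
bet1: GTTgccccagtAAC
wdr8: GTTgctatgacAAC
spo12: GTTgtcatggcAAC
knh1/alp1: GTTgtcagagcAAC
As RFX half-words, the words GTTGCCA or GTTACCA were at 14 of 36 pairs, against 5.07% of promoter windows, with 3 of 9, 7 of 18 and 4 of 9 by segment. Their variants GTTGTCA or GTTGCTA were at 23 of 36, against 8.67%, with 7 of 9, 11 of 18 and 5 of 9 by segment. Half-words can overlap the X-box arrangement, so these counts are not separate from it. An X-box arrangement or any half-word was at 31 of 36 pairs, against 21.5% of promoter windows. Both a GTAAACA word and an X-box arrangement were at 15 of 36 pairs, against 2.35% of promoter windows. The MCB word ACGCGT, read by the G1/S factor MBF, was at 4 of 36 pairs (11.1%), imp2/tam11, knh4, klp5/cay1 and myp2, against 3.27% of promoter windows and 11.2% of Fkh2 peaks without Sak1.

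**Figure D3:**
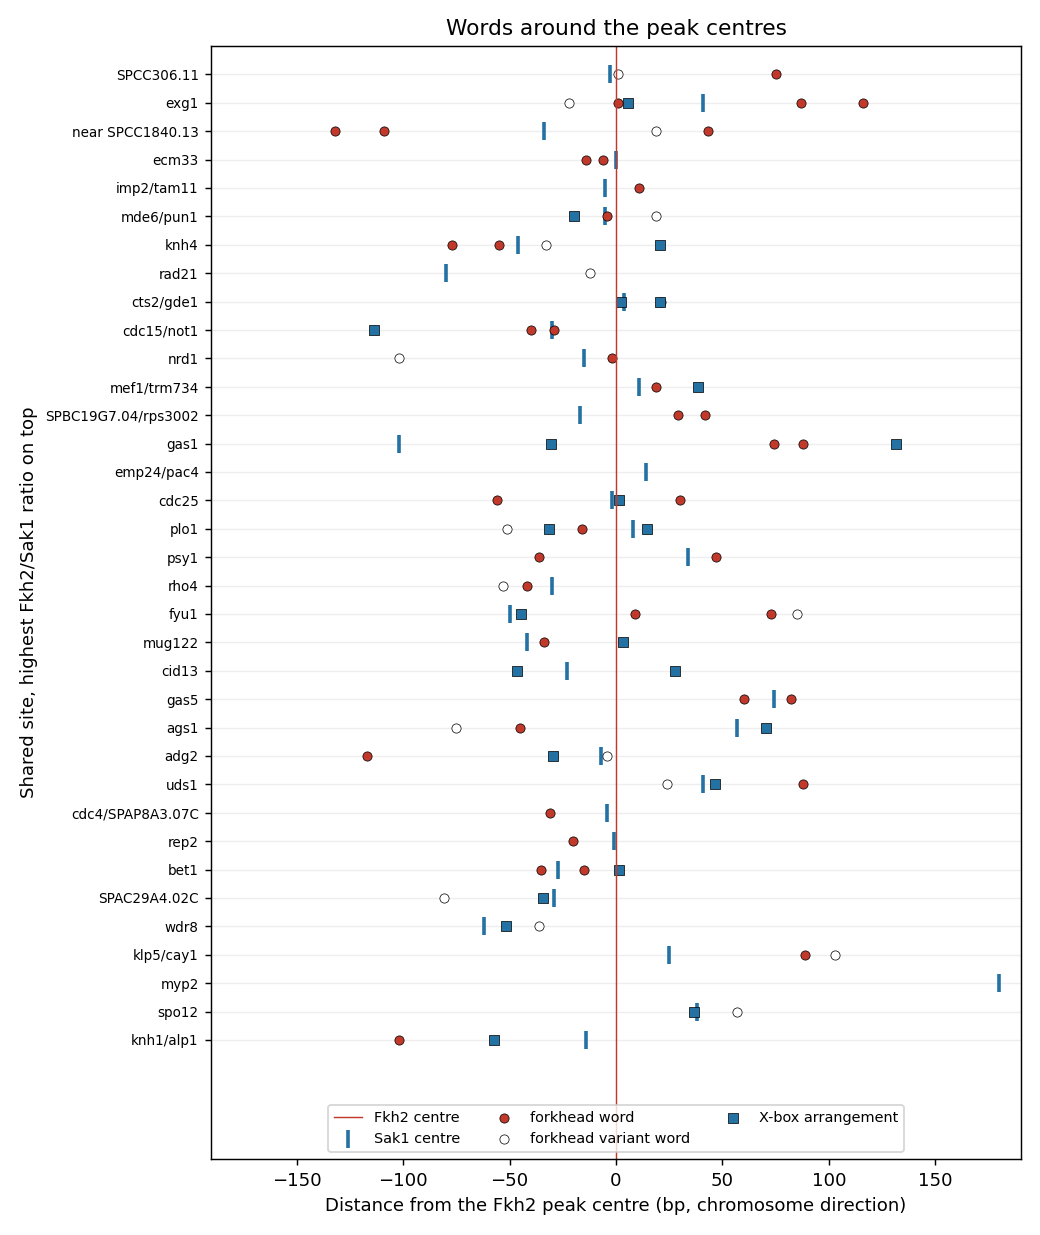
Positions of GTAAACA (filled circles), GTAAATA (open circles) and the X-box arrangement (squares) relative to the Fkh2 peak centre at 0, in bp, with the Sak1 centre as a short bar, for 35 of the 36 sites, ordered by ratio. The spo12 X-box arrangement stands at the Sak1 centre, and no circle or square appears at myp2 or at the middle site emp24/pac4.

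The words lay close to both centres. The nearest GTAAACA was a median of 30.5 bp from the Fkh2 centre and 25.5 bp from the Sak1 centre over the 28 pairs that held one, and it was nearer the Fkh2 centre at 12 and the Sak1 centre at 15. The nearest X-box arrangement was a median of 30 bp from the Fkh2 centre and 18.5 bp from the Sak1 centre over 20 pairs, nearer the Fkh2 centre at 6 and the Sak1 centre at 14. At spo12 the X-box arrangement was 36.5 bp from the Fkh2 centre and 1.5 bp from the Sak1 centre. The Fkh2 and Sak1 fragment lengths given by the peak caller were 110 and 230, and their part in the centre positions was not tested.

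The centres themselves were a median of 28 bp apart, and within 50 bp at 29 of 36 pairs. The nearest miss was at ecm33, where a second Fkh2 peak on chromosome I, at 1572200 to 1572354, held 4664.5 normalised tags and lay 372 bp from the Sak1 peak. The Fkh2 centre was between protein-coding genes at 8 of 9 pairs of the Fkh2-rich end, 14 of 18 of the middle and 4 of 9 of the Sak1-rich end. It was in an untranslated region at 0 of 9, 4 of 18 and 4 of 9. The median distance upstream of the nearest gene start was 71, 110 and 12 bp. A noncoding RNA was annotated across the Fkh2 centre at 6 of 9, 6 of 18 and 2 of 9 pairs. These shares rest on 9 pairs at each end and were not tested.

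A Sep1 peak overlapped 8 of the 36 pairs, of the 11 peaks in the Sep1 list. These were 5 of 9 at the Fkh2-rich end, SPCC306.11, exg1, ecm33, knh4 and cts2/gde1, then 3 of 18 in the middle, gas1 and psy1 among them, and 0 of 9 at the Sak1-rich end. The lowest ratio of a pair with a Sep1 peak was psy1, at -0.05. Pairs with a Sep1 peak had a median log2 ratio of 0.47, against -0.22 for the 28 without one. Both factors were higher at them, with a median of 3931 Fkh2 tags against 1637.15 at pairs without Sep1, and a median of 2917.7 Sak1 tags against 2024.8. Sep1 was also mapped in a treated culture, so the treatment and the factor cannot be told apart in these counts.

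The untagged control was measured in the same windows. It gave 159 tags over the Fkh2 windows and 235.5 over the wider Sak1 windows. The rho of the log2 ratio with the control tags was 0.14 for the Fkh2 windows and 0.17 for the Sak1 windows. The deposited fold over the control was 28.22 for Fkh2 and 5.64 for Sak1 at SPCC306.11, 78.5 and 26.58 at exg1, and 83.63 and 20.96 at ecm33. It was 37.51 for Fkh2 and 139.34 for Sak1 at spo12, and 88.29 and 196.17 at rep2. The control gave only 1 tag in each window at spo12 and rep2, and 2 in each at exg1. With equal control tags, the ratio of folds nearly repeats the ratio of tag counts. At the Fkh2-rich end rad21 had nearly equal folds, 8.76 for Fkh2 and 9.25 for Sak1, a log2 ratio of -0.08. At the Sak1-rich end the exception was knh1/alp1, where the control gave 1 tag in the Fkh2 window and 10 in the Sak1 window, and the fold was 26.56 for Fkh2 and 11 for Sak1. By this measure knh1/alp1 was Fkh2-rich, at a log2 ratio of 1.27 beside a median of 0.39 over all pairs.

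**Figure D4:**
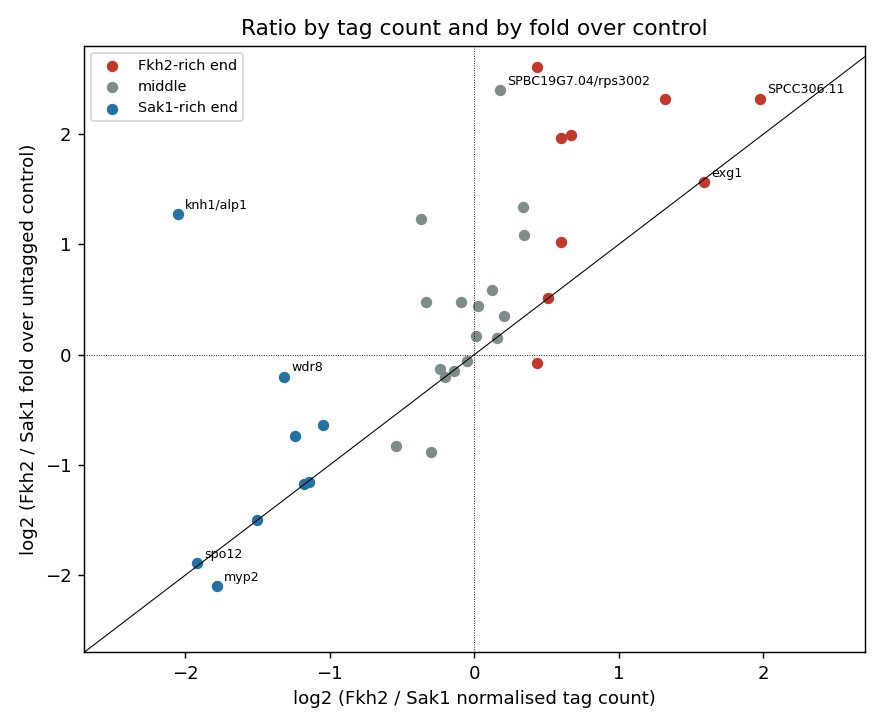
The log2 ratio of the fold over the untagged control, Fkh2 over Sak1 (vertical), against the log2 ratio of normalised tag count (horizontal), for 35 of the 36 sites. The rho over all 36 was 0.75, and knh1/alp1 stands apart at the left, at 1.27 on the vertical axis and -2.05 on the horizontal one.

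Relative to the surrounding 10000 bp, the deposited local fold gave a ratio with a rho of 0.89 against the ratio of tag counts, and 6 of the 9 Fkh2-rich and 7 of the 9 Sak1-rich pairs stayed at their ends. Its log2 ratio had a median of 0.49 over the pairs and was above 0 at 28 of 36, where 17 were above 0 by tag count. At ecm33 and knh4 it was close to that median, 0.50 and 0.54. Of the pairs whose counting interval left out 0, rep2, bet1 and uds1 changed sign on this scale, at 0.11, 0.13 and 0.30, and stayed below that median. SPCC306.11 kept the highest value, 2.19, with local folds of 29.01 for Fkh2 and 6.35 for Sak1, and spo12 had the lowest, -1.34, with 4.61 and 11.68.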

How the data were processed

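ChIP-seq peak lists of Fkh2-TAP and Sak1-TAP were compared, with the Sep1-TAP list used for overlap only. The submitters' processing notes name HOMER, Bowtie2 2.1.0 and SAMtools 0.1.18, and the genome build was not given in the sources used here. HOMER findPeaks, per the file headers, called peaks against the untagged library at a false discovery rate of 0.001, with 4 fold required over the control and over 10000 bp around the peak, and a Poisson p-value limit of 1e-04. Tag counts are deposited as a signal per 10000000 tags of the library. The deposited fold values are ratios over the control or local background, and the deposited focus ratio, a fraction, and findPeaks score were read as given. Unscaled tags were recovered with the library totals in the headers; all came out as multiples of 0.5 tags within 0.1.

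Overlap, ratios, words and positions were computed in Python 3.11.15 with pandas 2.3.3 and SciPy 1.17.1. Ratio intervals are exact conditional binomial (Clopper-Pearson) 95% intervals of recovered tags. They cover counting error only, since reads without molecular identifiers are not independent molecules. The interval and word-search code was checked on simulated data. The build was checked with the word GTAAACA, found no more than 25 bp from the centre in 53 of 152 Fkh2 peaks; after shifts along the chromosome the highest number was 9. Gene starts come from RefSeq. Sites, gene lists and words were chosen with earlier results of these data known, and general knowledge was the source of the gene lists. Every other gene in reach of a pair could be named, and the 9 highest and 9 lowest pairs are given with values. A further gene is not reported here; its pair counts in totals and is left out of the figures.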

Additional observations from a re-analysis of the deposited data

How the results depend on the processing

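The zero point of the order moved in several settings, and its ends kept most of their pairs. Per base pair, and with library sums over the pairs made equal, every ratio shifted by the same amount, so the order could not change. Of the 9 Fkh2-rich and 9 Sak1-rich pairs, 9 and 9 stayed among the 9 highest and lowest with control tags subtracted per base pair. By findPeaks score, whose ratio nearly repeats that of the tag counts (rho 0.998), 8 and 9 stayed. By fold over control or by local fold, 6 and 7 stayed. Per base pair the median log2 ratio was 0.57, with 9 pairs Fkh2-rich and 3 Sak1-rich by 2-fold and 23 intervals above 0. With control tags subtracted per base pair these were 0.58, 10 and 3. By fold over control they were 0.39, 12 and 5, and by local fold 0.49, 10 and 2. For the width settings the shift follows from the wider Sak1 peaks; for the folds the cause was not tested. Among the 20 pairs whose interval left out 0, sign changed at knh1/alp1, at 1.27 by fold over control, at rep2, bet1 and uds1, at 0.11, 0.13 and 0.30 by local fold, and at uds1, at 0.062 per base pair and 0.031 with control tags subtracted. Within 75 bp of the Fkh2 centre, 3 pairs of the Sak1-rich end held GTAAACA, against 5 within 150 bp. Requiring 50% overlap left 35 pairs, centres within 75 bp left 32, and 8 fold over control in both lists left 27, without SPCC306.11, with 2 pairs Fkh2-rich and 7 Sak1-rich and a range of log2 ratios of 3.64 beside 4.03. The X-box and GTAAATA counts, word counts over all pairs, the range of ratios and the count of pairs that stayed at their ends were added after seeing the data. Between 50 and 713 Fkh2 tags, and 53 and 350 Sak1 tags, stood behind each pair, which sets the width of the intervals. No replicate could be left out, because each factor has 1 pooled library. No paired analysis was possible because each factor has 1 pooled library and no result comes from a test.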
